A study of Mus musculus with 9 samples.

Results

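The genes described here are 10 innate immune genes measured in sorted mouse mammary cells: the RNA helicase sensors Ifih1 and Dhx58, the nucleic acid sensor Zbp1, the Toll-like receptors Tlr2 and Tlr3, the adaptor Mavs, the kinase gene Eif2ak2, the interferon regulatory factors Irf1 and Irf7, and Nos2. They were chosen by symbol from a table of 55450 genes, and were selected on earlier values of the same comparisons between the 3 genotypes. All 10 were found, and all 10 are among the 19357 genes left by filterByExpr, the low-count filter of edgeR. Differences between the genotypes are therefore described. An adjusted p is used below only to label these genes as called, and is no independent test of them. No support is drawn from how many of the genes differed.

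Luminal cells of the mammary gland were marked in adult nulliparous female mice 3 to 10 months old. Every mouse carried K8CreERT2, a tamoxifen-inducible Cre driven by the promoter of keratin 8, and lsl-EYFP, a reporter that recombined cells and their progeny switch on, so the EYFP+ cells descend from cells in which the Cre was active. Control mice carried these alleles only. The second genotype added floxed alleles of Lats1 and Lats2, the kinases of the Hippo pathway (LATS1/2f/f), and the third carried floxed Sox9, a transcription factor of luminal progenitors, in addition (LATS1/2f/f with Sox9f/f). All mice, controls included, received 2 mg of tamoxifen 5 times, and live EYFP+ cells were sorted 7 days after the last dose. RNA-sequencing gave 3 libraries for each genotype, with 44167762 to 47003587 counts in control, 50508666 to 61745346 in LATS1/2-KO and 55503365 to 61967651 in LATS1/2-Sox9-KO. Nothing in the labels says that the libraries came from separate mice, so the errors measure the spread between libraries.

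Cells detect foreign RNA with a small set of proteins. RIG-I (Ddx58) and MDA5 (Ifih1) bind double-stranded or unusual RNA in the cytosol and signal through MAVS on mitochondria, LGP2 (Dhx58) modulates both, and TLR3 detects double-stranded RNA in endosomes through the adaptor TRIF (Ticam1). These routes lead to interferon, and interferon in turn raises the transcription of many sensors, of PKR (Eif2ak2), which halts translation when it meets double-stranded RNA, and of IRF7, a factor that amplifies interferon transcription. TLR2 is a receptor for bacterial lipoproteins at the cell surface and not an RNA sensor, and inducible nitric oxide synthase (Nos2) makes nitric oxide from arginine, most familiarly in activated macrophages.

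Promoters are shown first because interferon and NF-kappaB are known to act on transcription through short DNA elements, whose patterns were searched for here. RefSeq promoter sequence, from 250 bases before to 50 bases after each start on GRCm38.p6, was found for 7 of the 10 genes (Ifih1, Tlr2, Tlr3, Mavs, Eif2ak2, Irf1 and Irf7), with 2 starts for Irf1. Both strands were searched for 5 short patterns, and each match is a description of letters and not of a bound factor. The core of the interferon-stimulated response element, spelled GAAA, any 2 bases, GAAA, was present in 3.44% of 32851 mouse promoters and in the promoters of Ifih1 and Eif2ak2. These stretches lie just after each start, at chr2:62646206-62646233 and chr17:78882535-78882564, both on the minus strand and written here on the strand of the gene, with the match in capitals:
Ifih1: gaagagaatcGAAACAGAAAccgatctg
Eif2ak2: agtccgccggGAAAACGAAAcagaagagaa

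The gamma-activated site, spelled TTCNNNGAA, was present in 8.3% of promoters and in those of Eif2ak2 and Irf1. The match in Irf1, shown because IRF1 is a classical target of interferon gamma, begins 90 bases before the start, in chr11:53769899-53769957 on the plus strand. The NF-kappaB pattern, spelled GGG, any 3 bases, TTCC, was present in 5.56% of promoters and in those of the Toll-like receptor genes Tlr2 and Tlr3, in chr3:83841747-83841806 and chr8:45410557-45410616 on the minus strand. Each is written on the strand of its gene, with the match in capitals:
Irf1: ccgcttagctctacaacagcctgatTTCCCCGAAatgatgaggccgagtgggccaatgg
Tlr2: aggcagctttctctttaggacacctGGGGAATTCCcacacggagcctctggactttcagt
Tlr3: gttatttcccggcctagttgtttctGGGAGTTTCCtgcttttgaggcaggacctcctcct
The TEAD core GGAATG (14.7% of promoters) and the AP-1 pattern TGANTCA (7.81%) were in none of the promoters of the 7 genes. A missing match says only that these letters are not in the window.

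Some library features bear on all results. The gene counts follow the labels for Lats1, with 5847 ± 152, 2116 ± 207 and 1870 ± 176 normalized counts (SD, n = 3) in control, LATS1/2-KO and LATS1/2-Sox9-KO, and do not follow them for Lats2, with 1041 ± 177, 1471 ± 236 and 1592 ± 359 (SD, n = 3). A normalized count is a count scaled by edgeR's TMM factors to the mean effective library size. Gene counts sum the reads of every exon, so they do not show whether floxed exons were lost, and the groups are named by their labels throughout. Sox9 had 21598 ± 1683, 9715 ± 2620 and 7343 ± 1281 normalized counts (SD, n = 3) and was thus also lower in the libraries labelled LATS1/2-KO, in which it is not floxed. Between the deletion groups the Sox9 libraries overlapped (7205, 9506 and 12433 in LATS1/2-KO, 8812, 6756 and 6460 in LATS1/2-Sox9-KO), with a log2 fold change of -0.40 (SE 0.19, adjusted p = 0.25 from edgeR), so Sox9 counts do not set these groups apart. Within the libraries labelled LATS1/2-Sox9-KO, replicate 1 stood apart, for the genes described here and over all genes tested. It held the highest value of its group for 9 of the 10 genes, the exception being Tlr3, while over all genes tested it was the highest in 40.9%. The chi-square per gene, a measure of difference in counts beyond depth, was 81.5 and 116 between it and replicates 2 and 3. Between replicates 2 and 3 it was 16.9. Pairs in control had 27.4 to 121 and pairs in LATS1/2-KO 61.9 to 136. The 10 genes together took 38.9, 41.4 and 38.2 of every 100000 counts in the control libraries, 72.8, 74.8 and 65.6 in those labelled LATS1/2-KO, and 214, 140 and 108 in those labelled LATS1/2-Sox9-KO.

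**Figure D1:**
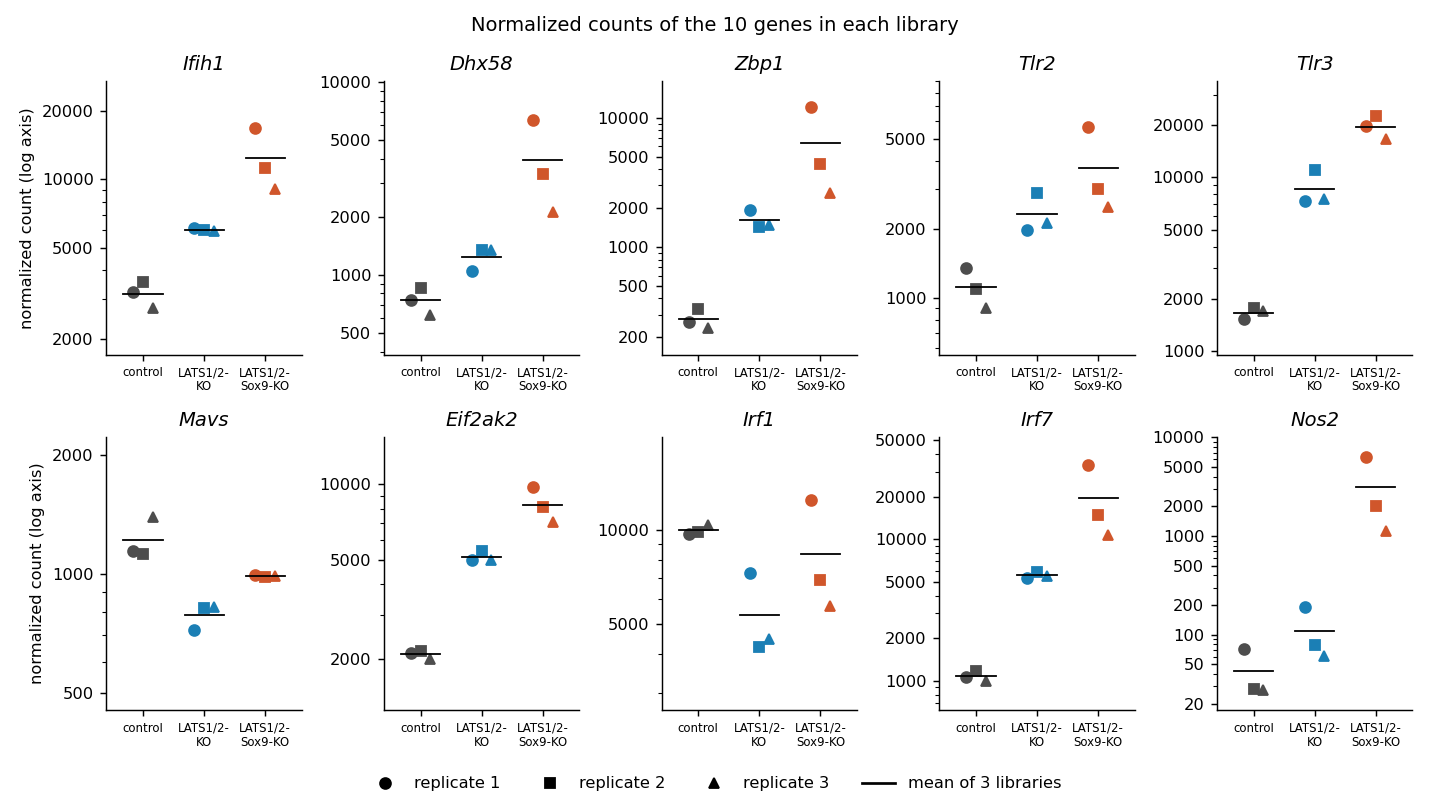
Normalized counts of each of the 10 genes (vertical log axis) in the 3 libraries of each group (symbols: replicates 1 to 3, bars: means). For Ifih1, Dhx58, Zbp1, Tlr3, Eif2ak2 and Irf7 the 3 groups form 3 separate steps, Nos2 is high in the libraries labelled LATS1/2-Sox9-KO alone, and Mavs and Irf1 are highest in mean in control.

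The helicase sensors formed steps from control to LATS1/2-KO to LATS1/2-Sox9-KO. Ifih1 (ENSMUSG00000026896, chromosome 2, 62595798 to 62646255 on GRCm38), which encodes MDA5, had 3215, 3547 and 2731 normalized counts in the control libraries, 6154, 5996 and 5952 in those labelled LATS1/2-KO, and 16865, 11238 and 9078 in those labelled LATS1/2-Sox9-KO. No library overlapped with those of another group, and the values labelled LATS1/2-KO were the closest together, with a coefficient of variation of 1.76%. The log2 fold change was 0.93 (SE 0.20) for LATS1/2-KO against control, 1.97 (SE 0.21) for LATS1/2-Sox9-KO against control, and 1.04 (SE 0.20) between the deletion groups. Dhx58 (ENSMUSG00000017830, chromosome 11, 100694884 to 100704271), which encodes LGP2, a relative of MDA5 without signaling domains, had 743, 854 and 616 normalized counts in control, 1041, 1338 and 1345 in LATS1/2-KO, and 6311, 3329 and 2119 in LATS1/2-Sox9-KO. The groups again did not overlap, but the step between the deletion groups was the larger one, with log2 fold changes of 0.75 (SE 0.33) for LATS1/2-KO against control and 1.66 (SE 0.34) for LATS1/2-Sox9-KO against LATS1/2-KO. The highest library labelled LATS1/2-Sox9-KO was 2.98 times the lowest for Dhx58 and 1.86 times for Ifih1, where the median gene with at least 100 normalized counts had 1.21.

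Of the Toll-like receptors, Tlr3 had the larger differences between the groups. Tlr3 (ENSMUSG00000031639, chromosome 8, 45395665 to 45411080) had 1525, 1772 and 1704 normalized counts in control, 7288, 10999 and 7532 in LATS1/2-KO, and 19649, 22425 and 16674 in LATS1/2-Sox9-KO. All libraries of each group lay apart from those of the next, at means 5.16 times control in LATS1/2-KO and 11.7 times control in LATS1/2-Sox9-KO. The log2 fold changes were 2.37 (SE 0.18) and 3.55 (SE 0.19) against control and 1.19 (SE 0.17) between the deletion groups. Tlr2 (ENSMUSG00000027995, chromosome 3, 83836272 to 83841767), the lipoprotein receptor, had 1347, 1097 and 897 normalized counts in control, 1983, 2886 and 2137 in LATS1/2-KO, and 5636, 3025 and 2507 in LATS1/2-Sox9-KO. Both deletion groups lay above control (log2 fold change 1.07, SE 0.29, and 1.74, SE 0.30), whereas they overlapped with each other (0.67, SE 0.29). Without control replicate 3 or LATS1/2-KO replicate 2, the log2 fold change of Tlr2 in LATS1/2-KO against control was 0.92 or 0.88, below the threshold of 1.

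Mavs, the adaptor through which MDA5 and RIG-I signal, did not share these steps. Mavs (ENSMUSG00000037523, chromosome 2, 131234063 to 131248025) had 1141, 1123 and 1390 normalized counts in control, 723, 818 and 826 in LATS1/2-KO, and 995, 980 and 985 in LATS1/2-Sox9-KO. Both deletion groups lay below every control library, and the libraries labelled LATS1/2-Sox9-KO lay between the others with a coefficient of variation of 0.808%, the smallest among the 10 genes. Its log2 fold changes were -0.63 (SE 0.13), -0.30 (SE 0.13) and, between the deletion groups, 0.32 (SE 0.13), all within the threshold of 1.

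Eif2ak2 and Zbp1 encode proteins that act on the cell when they meet unusual nucleic acid. Eif2ak2 (ENSMUSG00000024079, chromosome 17, 78852564 to 78882573), the gene of PKR, had 2102, 2158 and 1990 normalized counts in control, 4958, 5434 and 4965 in LATS1/2-KO, and 9725, 8143 and 7059 in LATS1/2-Sox9-KO. The 3 groups were apart with little spread, and the log2 fold changes were 1.30 (SE 0.13) and 2.00 (SE 0.13) against control and 0.70 (SE 0.12) between the deletion groups. Zbp1 (ENSMUSG00000027514, chromosome 2, 173206612 to 173218923), whose protein binds Z-form nucleic acid and can start necroptosis, had 262, 331 and 235 normalized counts in control, 1932, 1437 and 1477 in LATS1/2-KO, and 12020, 4427 and 2621 in LATS1/2-Sox9-KO. The groups did not overlap, yet the highest library labelled LATS1/2-Sox9-KO was 4.59 times the lowest. On the log2 scale Zbp1 differed by 2.55 (SE 0.48), 4.52 (SE 0.52) and 1.98 (SE 0.46) in the same order of comparisons. Without LATS1/2-Sox9-KO replicate 1, the log2 fold change of Zbp1 was 3.69 against control and 1.15 against LATS1/2-KO.

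The interferon regulatory factors went apart. Irf7 (ENSMUSG00000025498, chromosome 7, 141262706 to 141266481) had 1074, 1183 and 992 normalized counts in control, 5292, 5893 and 5544 in LATS1/2-KO, and 33238, 14808 and 10738 in LATS1/2-Sox9-KO. The groups did not overlap, and the log2 fold changes were 2.36 (SE 0.35) and 4.18 (SE 0.38) against control and 1.81 (SE 0.34) between the deletion groups, the latter 2 being 3.58 and 1.22 without LATS1/2-Sox9-KO replicate 1. Irf1 (ENSMUSG00000018899, chromosome 11, 53770014 to 53778374), a factor induced by interferon gamma, had 9735, 9853 and 10392 normalized counts in control, 7299, 4229 and 4460 in LATS1/2-KO, and 12454, 6893 and 5727 in LATS1/2-Sox9-KO. Every library labelled LATS1/2-KO lay below every control library, with a log2 fold change of -0.91 (SE 0.29), which was -1.20 without LATS1/2-KO replicate 1. The libraries labelled LATS1/2-Sox9-KO spanned the control values, with replicate 1 above and replicates 2 and 3 below them (log2 fold change -0.26, SE 0.29).

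Nos2 had the lowest control level of the 10 genes and the largest difference in both comparisons of LATS1/2-Sox9-KO. Nos2 (ENSMUSG00000020826, chromosome 11, 78920787 to 78960254) had 71.9, 28.3 and 27.4 normalized counts in control (62, 25 and 22 counts as deposited), 189, 77.9 and 61.1 in LATS1/2-KO, and 6359, 2019 and 1135 in LATS1/2-Sox9-KO. Control and LATS1/2-KO overlapped, with replicate 1 the highest of each, and every library labelled LATS1/2-Sox9-KO lay above all others. The log2 fold change was 1.35 (SE 0.72) for LATS1/2-KO against control (0.71 without LATS1/2-KO replicate 1 and 1.96 without control replicate 1, called in neither), 6.21 (SE 0.80) for LATS1/2-Sox9-KO against control and 4.87 (SE 0.73) between the deletion groups, a 29.1-fold difference. The mean of LATS1/2-Sox9-KO replicates 2 and 3 alone was 14.4 times the mean of LATS1/2-KO, so that replicate 1 moved the size of the difference and not its direction. Against control the log2 fold change of Nos2 was 5.22 without that library and 6.83 without control replicate 1, and between the deletion groups it was 5.51 without LATS1/2-KO replicate 1.

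**Figure D2:**
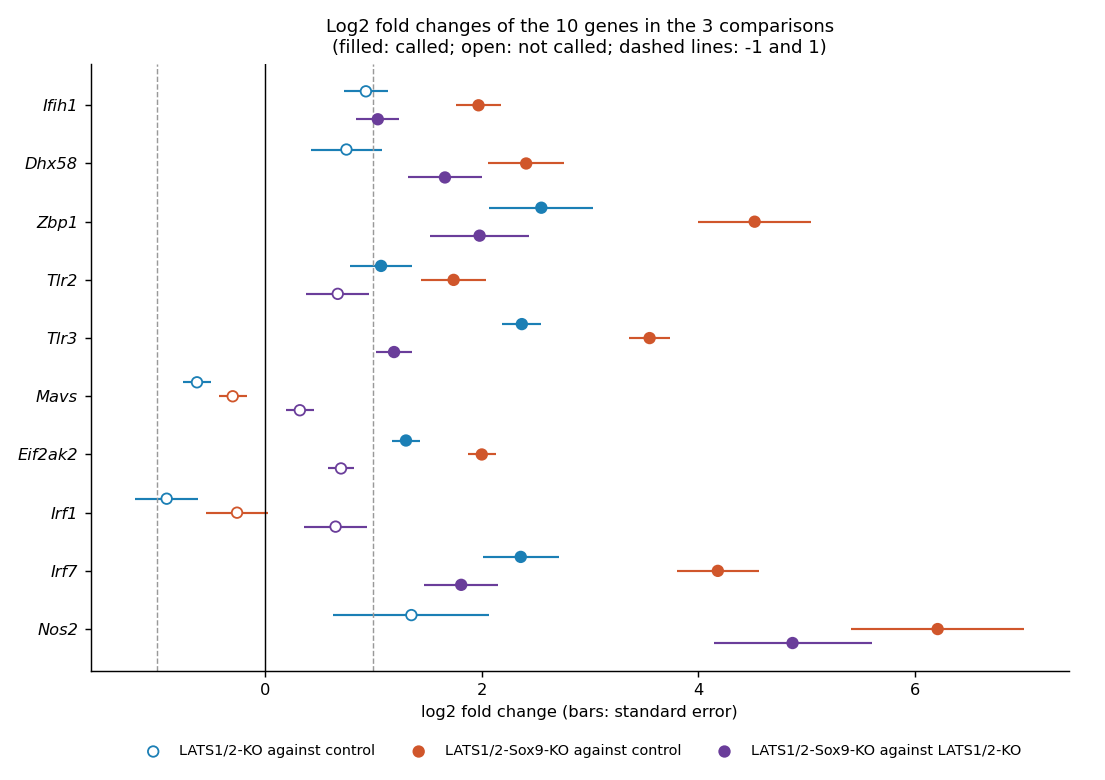
Log2 fold change of each gene (horizontal axis, bars: standard error) in the 3 comparisons, filled where the gene was called and open where it was not. Mavs and Irf1 lie below 0 in both comparisons with control, and Nos2 is near the dashed line at 1 in LATS1/2-KO and at 6.21 in LATS1/2-Sox9-KO.

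A gene was called when its log2 fold change was past 1 in either direction and its adjusted p, over all genes tested, was at most 0.05. Of the 10 genes, 5 were called higher in LATS1/2-KO than in control (Zbp1, Tlr2, Tlr3, Eif2ak2 and Irf7) and 0 lower, where 34.6% of all genes were called, 17.1% higher and 17.5% lower. In LATS1/2-Sox9-KO against control, 8 were called higher, that is all but Mavs and Irf1, and 37.4% of all genes were called, 17.8% higher and 19.6% lower. Between LATS1/2-Sox9-KO and LATS1/2-KO, 6 were called higher (Ifih1, Dhx58, Zbp1, Tlr3, Irf7 and Nos2), where 3.71% of all genes were called, 1.55% higher and 2.16% lower. The comparisons share libraries, since both deletion groups were set against the same 3 control libraries. Nearest to the threshold were Tlr2 at 1.07 inside and Ifih1 at 0.93 outside in LATS1/2-KO against control, and Ifih1 at 1.04 inside and Eif2ak2 at 0.70 outside between the deletion groups. The median log2 fold change of the 10 genes was 1.19, 2.20 and 1.11 in the 3 comparisons, where the median of all genes was 0.04, 0.01 and -0.02.

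Separation of the libraries gave a like account. In LATS1/2-KO against control, 7 of the 10 genes had all libraries above control and 2 (Mavs and Irf1) all below, where 61.6% of all genes had no overlap (31.3% higher and 30.3% lower). In LATS1/2-Sox9-KO against control, 8 lay above and 1 (Mavs) below, where 68.8% of all genes had no overlap (34.9% higher and 33.8% lower). Between the deletion groups 8 lay above, Mavs among them, and 0 below, with overlap for Tlr2 and Irf1, where 27.9% of all genes had no overlap (14.6% higher and 13.3% lower).

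Several calls between the deletion groups were lost when 1 library was left out. Without LATS1/2-KO replicate 3, 2 of the 10 genes were called (Tlr3 and Nos2), and without LATS1/2-Sox9-KO replicate 2, 3 were called. In the former case the log2 fold changes were 1.03 for Ifih1, 1.72 for Dhx58, 1.92 for Zbp1 and 1.81 for Irf7, close to those of all libraries. In the latter case the genes no longer called were Ifih1 at 1.13, Dhx58 at 1.79 and Zbp1 at 2.20, larger than with all libraries, so in both cases the adjusted p and not the size crossed its threshold. Without LATS1/2-Sox9-KO replicate 1, 5 were called, and the means of replicates 2 and 3 over the mean of LATS1/2-KO were 1.68 for Ifih1, 2.19 for Dhx58, 2.18 for Zbp1, 2.27 for Tlr3 and 2.29 for Irf7. In LATS1/2-Sox9-KO against control, the count remained 8 without any 1 library of either group, and in LATS1/2-KO against control it ranged from 4 to 6.

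Per length, the order of the genes changed between the groups. In CPM per kb of exon, Irf1 was the highest in control at 46.7 ± 1.64 (SD, n = 3), far above the next, Eif2ak2, at 7.57 ± 0.311. Eif2ak2, Ifih1 (7.2 ± 0.934), Tlr2 (6.86 ± 1.39) and Mavs (6.77 ± 0.83) were within 1 SD of their neighbours in that order, and Nos2 was the lowest at 0.179 ± 0.107. In the libraries labelled LATS1/2-KO, Tlr3 (30.7 ± 7.41), Irf7 (27.4 ± 1.48) and Irf1 (24.9 ± 7.99) were at the top and not apart beyond their spread. In those labelled LATS1/2-Sox9-KO, Irf7 (96.4 ± 59) and Tlr3 (69.9 ± 10.3) led, within the spread of Irf7, and Mavs had the lowest mean at 5.48 ± 0.0442. The mean of Nos2, 13.4 ± 11.8, was not apart from it beyond its spread, and LATS1/2-Sox9-KO replicate 3 had less Nos2 (4.78) than Mavs (5.47).

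Related genes were taken from lists written for each pathway, chosen with earlier results of these data known. Against control, 34.6% and 37.4% of all genes were called in LATS1/2-KO and LATS1/2-Sox9-KO. The shares called in either direction were 31.8% and 18.2% for the Toll-like receptor list, 41.7% and 33.3% for the cell death list and 28.6% in both for the other interferon regulatory factors. They were 40% and 46.7% for interferons, receptors and JAK-STAT genes, 37.5% and 43.8% for NF-kappaB, and 43.8% and 50% for nitric oxide. The Toll-like receptor list in LATS1/2-Sox9-KO, at 18.2%, was well below the 37.4% of all genes, and the other shares ranged from 28.6% to 50%. The RIG-I-like receptor list was lower than all genes in both, at 12.5% and 16.7%. Between the deletion groups these lists ranged from 0% to 16.7%, where 3.71% of all genes were called. Their counts are given as a description and not as a result about the lists. Of the other 24 genes of the RIG-I-like receptor pathway, 1 was called higher and 2 lower in LATS1/2-KO than in control, and 2 higher and 2 lower in LATS1/2-Sox9-KO, with medians of 0.08 and 0.14. Ddx60, a helicase linked to RIG-I signaling, rose in both (log2 fold change 1.81, SE 0.24, and 3.50, SE 0.25) and again between the deletion groups (1.70, SE 0.23, adjusted p = 0.0058; here and below from the quasi-likelihood model of edgeR, adjusted by Benjamini-Hochberg). Ddx58, the gene of RIG-I, had 5372, 5314 and 4342 normalized counts in control, 8496, 10837 and 9093 in LATS1/2-KO, and 18239, 14547 and 12419 in LATS1/2-Sox9-KO. Its groups did not overlap, and it was called in LATS1/2-Sox9-KO against control (1.59, SE 0.16, adjusted p = 2.48e-05) but lay under the threshold of size in LATS1/2-KO (0.92, SE 0.16). Nlrx1, a mitochondrial protein known to bind MAVS, fell in both (-1.39, SE 0.16, and -1.16, SE 0.16), as did Tbkbp1, a partner of the kinase TBK1. Trim25, a ubiquitin ligase of RIG-I, rose between the deletion groups (1.39, SE 0.22, adjusted p = 0.00983).

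Around TLR3, genes were called in both directions. Of 26 Toll-like receptor and adaptor genes on the list, 22 were tested, of which 2 were called higher and 5 lower in LATS1/2-KO than in control, 1 higher and 3 lower in LATS1/2-Sox9-KO, and 0 higher and 1 lower between the deletion groups (medians 0.01, -0.23 and 0.03). Ticam1, the gene of TRIF, had 857, 895 and 1124 normalized counts in control, 362, 370 and 338 in LATS1/2-KO, and 524, 490 and 475 in LATS1/2-Sox9-KO. It fell in LATS1/2-KO (-1.42, SE 0.16, adjusted p = 5.1e-05) and was not called in LATS1/2-Sox9-KO (-0.95). Unc93b1, the chaperone that takes TLR3 to endosomes, fell in LATS1/2-KO (-1.65, SE 0.23, adjusted p = 0.00019). In LATS1/2-Sox9-KO it was just past the threshold at -1.01, and that call was lost without control replicate 3 or LATS1/2-Sox9-KO replicate 2 or 3 (-0.83 to -0.91). Irak3, an inhibitor of Toll-like receptor signaling, fell in LATS1/2-Sox9-KO (-1.81, SE 0.26, adjusted p = 0.000193). The other genes called lower were, named after their values were seen, Tlr5, Irak3 and Irak4 in LATS1/2-KO and Cd14, a co-receptor of Toll-like receptors, in LATS1/2-Sox9-KO. The log2 fold changes of Tlr5 (-1.09), Irak3 (-1.04) and Irak4 (-1.02) in LATS1/2-KO were close to the threshold, and the calls were lost without control replicate 2 or LATS1/2-KO replicate 2 or 3 for Tlr5, without control replicate 3 or LATS1/2-KO replicate 1 for Irak3, and without LATS1/2-KO replicate 2 or 3 for Irak4 (-0.71 to -0.99). Cd14 was at -1.10 (SE 0.23) against control and -1.11 (SE 0.23) against LATS1/2-KO, and the call against LATS1/2-KO was lost without LATS1/2-KO replicate 2 or 3 or without any 1 of the libraries labelled LATS1/2-Sox9-KO (adjusted p = 0.0601 to 0.11), and the call against control without control replicate 1 or 2 or LATS1/2-Sox9-KO replicate 2 (-0.93 to -0.98). The genes called higher, also named afterwards, were Tlr6 and Tlr7 in LATS1/2-KO and Tlr7 in LATS1/2-Sox9-KO, and Tlr7 stood at no more than 34.1 normalized counts in any library.

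The list of double-stranded RNA effectors and eIF2 alpha kinases, without PKR, had the most calls outside the interferon-stimulated genes. It also holds genes that act on eIF2 alpha, the translation factor that PKR phosphorylates, and not on RNA. Of its 21 genes, 10 were called higher and 3 lower in LATS1/2-KO than in control, 12 higher and 3 lower in LATS1/2-Sox9-KO, and 9 higher and 0 lower between the deletion groups, with medians of 1.21, 1.55 and 0.92. In either direction 61.9%, 71.4% and 42.9% of the list were called, where 34.6%, 37.4% and 3.71% of all genes were. Ifit1, whose protein binds foreign RNA ends, had 198, 176 and 149 normalized counts in control, 4238, 6070 and 3997 in LATS1/2-KO, and 43772, 23575 and 14794 in LATS1/2-Sox9-KO. Ifit3 rose by 5.08 (SE 0.56) and 8.32 (SE 0.63) on the log2 scale against control, the latter being 7.62 without LATS1/2-Sox9-KO replicate 1, and Oasl1, an oligoadenylate synthetase-like gene, rose by 3.04 (SE 0.36, adjusted p = 0.00368) between the deletion groups. The genes called lower included the RNA editing enzyme gene Adarb1 at -2.04 (SE 0.27) and -3.04 (SE 0.28), and, named after their values were seen, Ppp1r15a in LATS1/2-KO and Dnajc3 in LATS1/2-Sox9-KO. Ppp1r15a encodes a phosphatase subunit that acts on eIF2 alpha and Dnajc3 an inhibitor of its kinases, and the call of Ppp1r15a (-1.03) was lost without control replicate 1 or 2 or LATS1/2-KO replicate 2 (-0.96 to -0.98). Eif2s1, the gene of eIF2 alpha itself, also named afterwards, was among the genes called higher in both comparisons with control (log2 fold change 1.26, SE 0.09, and 1.55, SE 0.09). The other eIF2 alpha kinases, Eif2ak1, Eif2ak3 and Eif2ak4, were not called in any comparison. The count of 9 between the deletion groups was 5 without LATS1/2-KO replicate 3 and 6 without LATS1/2-Sox9-KO replicate 2.

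Zbp1 was read beside 12 genes of cell death. In LATS1/2-KO against control 3 were called higher and 2 lower, in LATS1/2-Sox9-KO 4 higher and 0 lower, and between the deletion groups 2 higher and 0 lower (medians 0.23, 0.10 and 0.40). The latter were Mlkl and Casp1, and the call of Casp1 (1.22) was lost at 1.09 without LATS1/2-KO replicate 3 or LATS1/2-Sox9-KO replicate 2 (adjusted p = 0.0606 and 0.0699). Mlkl, the executor of necroptosis downstream of ZBP1, had 441, 471 and 418 normalized counts in control, 2125, 1856 and 1915 in LATS1/2-KO, and 7156, 5411 and 4085 in LATS1/2-Sox9-KO. It rose in all 3 comparisons (2.15, SE 0.19; 3.65, SE 0.20; and 1.5, SE 0.18, adjusted p = 0.00403). Ripk3, the kinase between them, named after its values were seen, had 199 to 235 normalized counts in control, 112 to 119 in LATS1/2-KO and 140 to 168 in LATS1/2-Sox9-KO, and was not called. Casp1 rose in LATS1/2-Sox9-KO against control (2.41, SE 0.24), Pycard, the adaptor of inflammasomes, fell in LATS1/2-KO (-1.33, SE 0.32), and Gsdmd, whose protein inflammatory caspases cut, fell there too (-2.23, SE 0.48, adjusted p = 0.00283).

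Of the 7 other interferon regulatory factors, 0 were called higher and 2 lower in LATS1/2-KO than in control, 1 higher and 1 lower in LATS1/2-Sox9-KO, and 0 in either direction between the deletion groups by edgeR. Irf8, a factor best known from myeloid and B cells, had 793, 637 and 566 normalized counts in control, 30.1, 20.3 and 26.4 in LATS1/2-KO, and 39, 11 and 15.5 in LATS1/2-Sox9-KO, and fell in both (-4.70, SE 0.44, adjusted p = 1.87e-05, and -4.92, SE 0.45, adjusted p = 1.15e-05, with -5.61 without LATS1/2-Sox9-KO replicate 1). Irf2, an antagonist of IRF1 at shared sites, fell in LATS1/2-KO (-1.30, SE 0.31, adjusted p = 0.00547). Irf5 rose in LATS1/2-Sox9-KO (1.36, SE 0.31, adjusted p = 0.00395), but its log2 fold change was 0.98 without LATS1/2-Sox9-KO replicate 1. Irf3, the factor that MAVS and TRIF activate, which was named after its values were seen, had 3642, 3365 and 3556 normalized counts in control, 2620, 1700 and 1778 in LATS1/2-KO, and 3339, 2367 and 2352 in LATS1/2-Sox9-KO, and was not called.

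**Figure D3:**
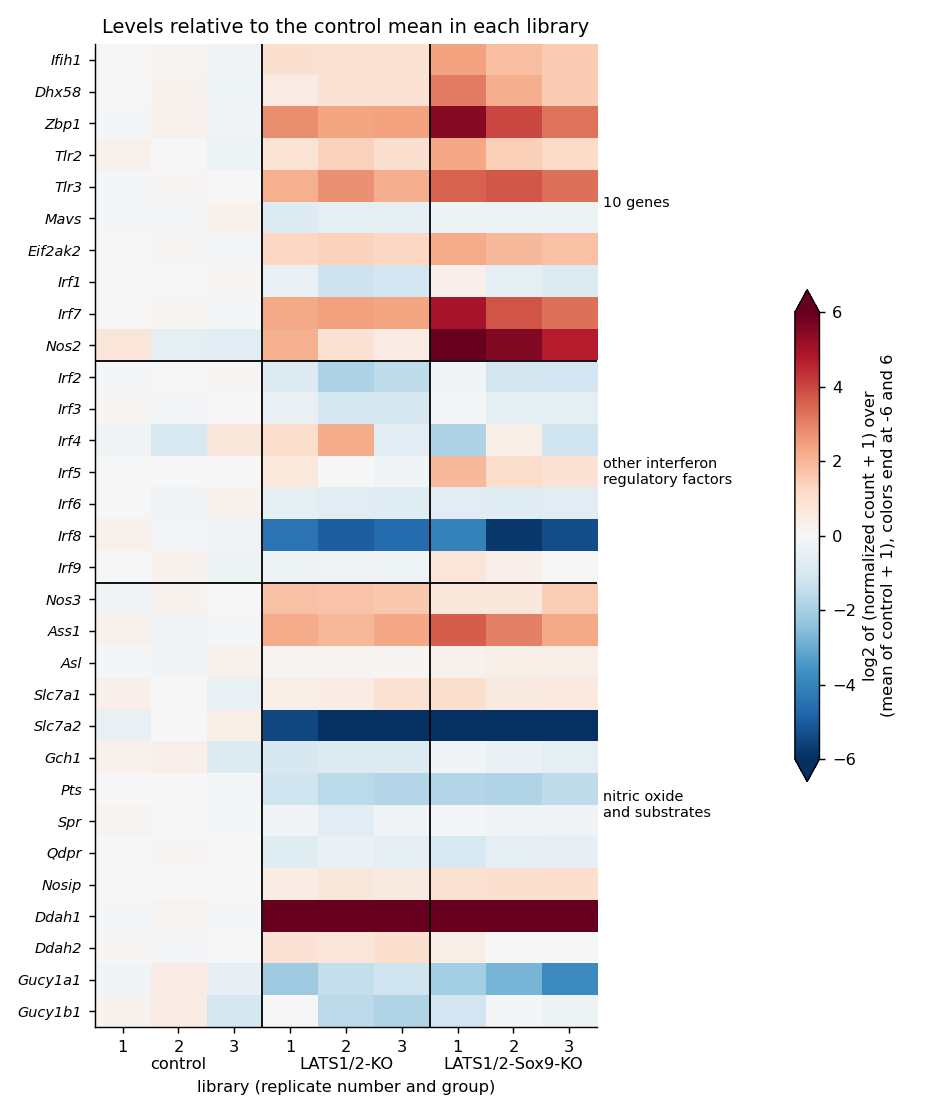
Heat map of the 10 genes, the other interferon regulatory factors and tested genes of the nitric oxide list (rows) in each library (columns), as log2 of the normalized count plus 1 over the control mean plus 1, with colors ending at -6 and 6. Red rows include Irf7, Zbp1, Nos2, Ass1 and Ddah1, and blue rows include Irf8 and Slc7a2.

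Interferons themselves were hardly counted. The list of 24 interferons, receptors and JAK-STAT genes had 15 tested, the other 9 being interferon genes, with 3 called higher and 3 lower in LATS1/2-KO than in control, 4 higher and 3 lower in LATS1/2-Sox9-KO, and 2 higher and 0 lower between the deletion groups (medians -0.13, 0.29 and 0.07). The latter were Usp18 and, named after its values were seen, Stat2, and both calls were lost without LATS1/2-KO replicate 3 (log2 fold changes 1.82 and 1.75 against 1.9 and 1.6 with all libraries, adjusted p = 0.0768 and 0.0643) and that of Stat2 also without LATS1/2-KO replicate 2 or LATS1/2-Sox9-KO replicate 2. Ifnb1, interferon beta, named after its values were seen, had 0 counts in each control library, 8, 17 and 35 counts in LATS1/2-KO and 101, 8 and 17 in LATS1/2-Sox9-KO. Against a floor of 3 counts in each control library, its mean was at least 5.12-fold higher in LATS1/2-KO and at least 11.1-fold higher in LATS1/2-Sox9-KO, the latter with most of its counts in replicate 1. Without that library the mean in LATS1/2-Sox9-KO was 11.7 normalized counts, at least 3.31-fold higher than control and below the 18.1 in LATS1/2-KO. The mean and bound of LATS1/2-KO likewise rest mostly on replicate 3, with 8.02, 14.4 and 31.9 normalized counts in replicates 1 to 3. The order of the deletion groups thus depends on single libraries. Usp18, an inhibitor of interferon receptor signaling, rose by 1.98 (SE 0.37) and 3.89 (SE 0.40) against control, and Il10rb, a shared subunit of the interferon lambda receptor, by 1.29 (SE 0.14) and 1.56 (SE 0.14), whereas Ifnlr1, the other subunit, fell by 1.31 (SE 0.12) in LATS1/2-KO. Socs3, an inhibitor of JAK kinases, fell from 33600, 27765 and 43199 normalized counts in control to 3243, 2437 and 2998 in LATS1/2-KO and 4481, 2055 and 1750 in LATS1/2-Sox9-KO (-3.59, SE 0.35, adjusted p = 2.46e-05, and -3.66, SE 0.35, adjusted p = 1.71e-05).

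All 20 listed interferon-stimulated genes were tested, of which 18 were called higher and 0 lower in LATS1/2-KO than in control, 20 higher in LATS1/2-Sox9-KO, and 13 higher and 0 lower between the deletion groups, with medians of 2.43, 4 and 1.45. These calls were 90%, 100% and 65% of the list, where 34.6%, 37.4% and 3.71% of all genes were called in either direction. Of all genes, 17.1%, 17.8% and 1.55% were called higher. Ifit1 and Ifit3 stand both on this list and on that of double-stranded RNA effectors, and Usp18 both on this list and on that of JAK-STAT genes. Ifi27l2a rose by 5.84 (SE 0.68, adjusted p = 7.13e-05) in LATS1/2-KO. For all 20, the highest library labelled LATS1/2-Sox9-KO was replicate 1, and the 13 calls between the deletion groups were 10 without it, 4 without LATS1/2-KO replicate 3, and 8 without LATS1/2-Sox9-KO replicate 2.

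NF-kappaB, which MAVS and Toll-like receptors also activate, was represented by its subunits and inhibitors. Of 16 genes, 0 were called higher and 6 lower in LATS1/2-KO than in control, 1 higher and 6 lower in LATS1/2-Sox9-KO, and 0 in either direction between the deletion groups by edgeR, with medians of -0.45, -0.53 and -0.06. Rela had 16482, 15705 and 13512 normalized counts in control, 4267, 3930 and 5741 in LATS1/2-KO, and 6461, 4940 and 4375 in LATS1/2-Sox9-KO, and fell in LATS1/2-KO by 1.71 on the log2 scale (SE 0.18, adjusted p = 4.24e-05). Nfkb1 fell in both (-1.62, SE 0.20, and -1.83, SE 0.20). Tnfaip3, the gene of the NF-kappaB inhibitor A20, rose in LATS1/2-Sox9-KO (1.30, SE 0.27, adjusted p = 0.00197), with 0.88 without LATS1/2-Sox9-KO replicate 1.

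Genes that supply or compete with nitric oxide synthase moved in both directions. Of 16 tested genes among 18, 4 were called higher and 3 lower in LATS1/2-KO than in control, 4 higher and 4 lower in LATS1/2-Sox9-KO, and 0 higher and 2 lower between the deletion groups (medians -0.10, -0.02 and 0.12). Slc7a2, a transporter that brings arginine into the cell, had 67224, 94485 and 116488 normalized counts in control, 2120, 307 and 968 in LATS1/2-KO, and 82.6, 61.8 and 101 in LATS1/2-Sox9-KO. It fell in both (-6.36, SE 0.65, adjusted p = 3.23e-05, and -10.14, SE 0.77, adjusted p = 4.43e-06). Ass1, which rebuilds arginine from citrulline, rose by 2.20 (SE 0.32) and 3.10 (SE 0.33). Named after their values were seen, Nos3 was called higher and Pts lower in both comparisons with control, and Gucy1a1 lower in LATS1/2-Sox9-KO. The call of Nos3 in LATS1/2-Sox9-KO (1.03) was lost without any 1 control library and without LATS1/2-Sox9-KO replicate 2 or 3 (adjusted p = 0.0527 to 0.193). Ddah1, whose enzyme breaks down inhibitors of nitric oxide synthase, had 3.48, 4.54 and 3.73 normalized counts in control against 2374, 1791 and 2829 in LATS1/2-KO and 4288, 4747 and 4447 in LATS1/2-Sox9-KO. Slc7a2 was also called lower between the deletion groups (-3.78, SE 0.61), with adjusted p = 0.0522 without LATS1/2-Sox9-KO replicate 2. Without LATS1/2-KO replicate 1, it was at -7.18 in LATS1/2-KO against control and at -2.95 between the deletion groups.

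**Figure D4:**
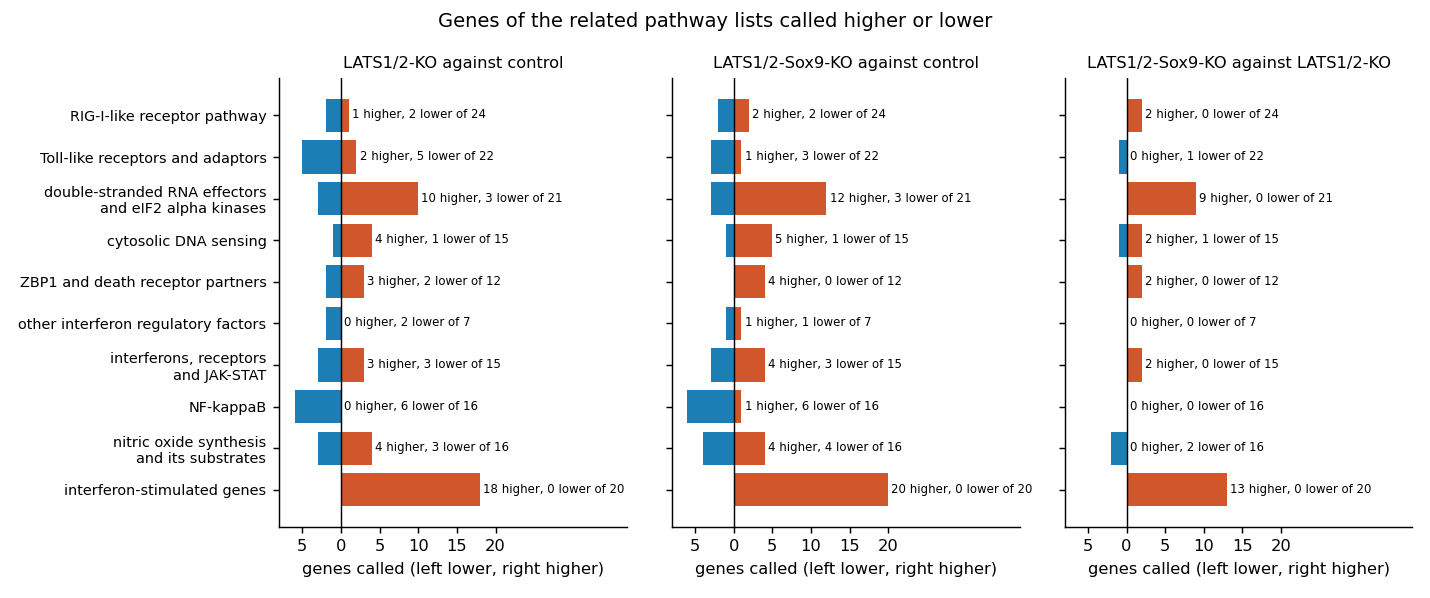
Number of genes called lower (blue, to the left of 0) and higher (red, to the right) in each pathway list and comparison, with the number tested. Interferon-stimulated genes and double-stranded RNA effectors have most of the calls higher, and NF-kappaB genes have 6 lower in each comparison with control.

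The labelled cell type was checked with marker lists. Luminal markers summed to 19521, 19003 and 21501 CPM in control, 17614, 17137 and 17294 in LATS1/2-KO, and 28613, 26300 and 24727 in LATS1/2-Sox9-KO, with Krt18 the most abundant. Within that list, 6 of 12 genes were called lower in LATS1/2-KO and 8 lower and 2 higher in LATS1/2-Sox9-KO. Basal markers, led by Krt14, summed to 83.9, 104 and 91.8 CPM in control, 4998, 3007 and 2906 in LATS1/2-KO, and 2943, 5233 and 7189 in LATS1/2-Sox9-KO. Of the 8 basal markers, 4 were called higher and 2 lower in LATS1/2-KO than in control, and 4 higher and 3 lower in LATS1/2-Sox9-KO. Replicate 1 of LATS1/2-Sox9-KO, the highest for 9 of the 10 genes, had the lowest basal sum of its group, which Krt14 mostly makes up (126133, 240831 and 383904 counts in replicates 1 to 3). For Krt17, named after its values were seen, it was the highest (39374, 33510 and 33725 counts). In these bulk libraries, fewer cells of a type and less RNA per cell cannot be told apart.

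Immune cell markers were examined because several of the 10 genes are abundant in macrophages. The 10 macrophage markers summed to 21.2, 14.5 and 14.7 CPM in control, 97.3, 64.5 and 42.2 in LATS1/2-KO, and 73.4, 74 and 104 in LATS1/2-Sox9-KO, and 5 and 7 of them were called higher than in control. The most abundant over all libraries was Csf1r, with 112 to 179 counts in control, 1922 to 2802 in LATS1/2-KO and 2926 to 4254 in LATS1/2-Sox9-KO, and none of the 10 was at 0 throughout. Between the deletion groups the macrophage sums overlapped and 0 of 10 markers were called by edgeR, and Csf1r made up most of the sum in every library of both groups. Within LATS1/2-Sox9-KO, replicate 1 had the fewest counts of Csf1r (2926, 3133 and 4254) and, of markers named after their values were seen, the most of Fcgr1 (99, 16 and 46), Itgam (68, 15 and 44) and Cd68 (386, 328 and 269). The other macrophage markers, also named afterwards, had the most counts in replicate 3, as Csf1r did. They were Adgre1 (55, 34 and 97), Lyz2 (269, 205 and 483), Mrc1 (61, 52 and 207), C1qa (130, 74 and 236), C1qb (149, 92 and 358) and C1qc (111, 49 and 172). The 6 pan-leukocyte markers summed to 3.94, 3.33 and 1.8 CPM in control, 9.26, 3.87 and 2 in LATS1/2-KO, and 6.83, 2.15 and 6.74 in LATS1/2-Sox9-KO, with overlap of all groups and Ptprc (CD45) at no more than 166 counts in any library. The sort was on live EYFP+ cells, and the part that macrophage RNA had in the differences of the 10 genes, in any of the 3 comparisons, was not tested.

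Markers of other immune lineages had few counts, apart from Zbtb46 of the dendritic cell list, with 152 to 678 counts. Named after their values were seen, Cd3e of T cells, Ncr1 of NK cells, Ms4a1 of B cells and Clec9a of dendritic cells had 0 counts in every library. On the same lists, Itgax of dendritic cells had 18 to 48 counts and Cd79a of B cells 11 to 63. Neutrophil markers reached no more than 1.08 CPM, led by S100a8, the 1 gene tested of the 6, which was called higher in LATS1/2-Sox9-KO than in control and had 8 to 12 counts in control and 25 to 48 in the deletion groups. Dendritic cell markers, led by Zbtb46, reached 12 CPM, and 1 of the 2 tested was called lower between the deletion groups. B cell markers, led by Cd79a, reached 1.6 CPM, and 1 of the 2 tested was called lower in each deletion group than in control. Endothelial markers, led by Vwf, summed to 111, 92.1 and 109 CPM in control against 5.81 to 17.5 in the deletion groups. Vwf made up most of the control sum, with 4799, 4065 and 4196 counts in control and 67 to 263 in the deletion groups, and of the 6 markers 1 was called higher and 1 lower in each comparison with control. Kdr, named after its values were seen, had 2 to 35 counts in control and 101 to 413 in the deletion groups. Adipocyte markers, led by Cidec, summed to no more than 0.232 CPM in control, 0.13, 15.3 and 8 in LATS1/2-KO, and 0.604, 3.94 and 2.94 in LATS1/2-Sox9-KO, with 3 of 4 called higher in each deletion group than in control. The summed fibroblast markers, led by Dcn, overlapped among all 3 groups, with 3 of 6 called higher and 1 lower in LATS1/2-KO than in control and 2 higher and 2 lower in LATS1/2-Sox9-KO. Col1a1 and Col3a1, named after their values were seen, had 229 to 303 and 77 to 356 counts in control, and 523 to 2473 and 774 to 4055 in the deletion groups. The part of these cell types in the differences of the 10 genes was not tested.

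**Figure D5:**
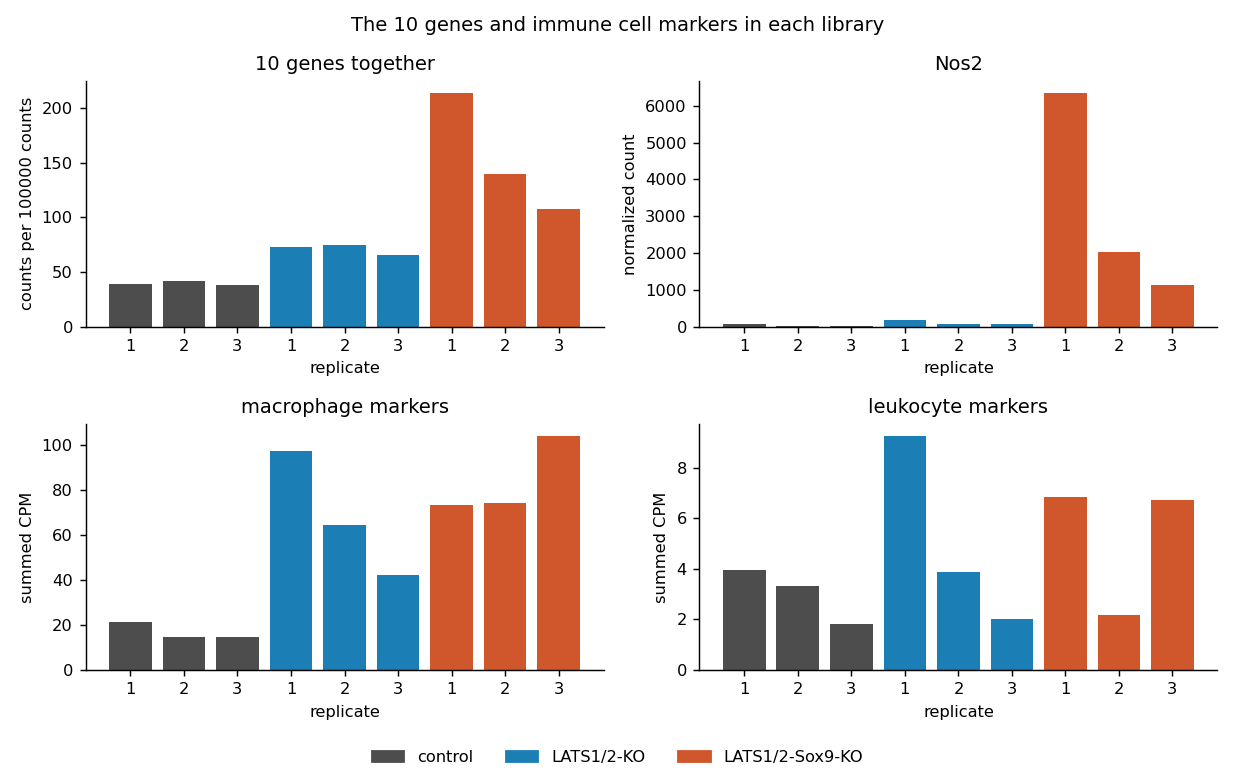
Counts of the 10 genes together per 100000 counts, normalized counts of Nos2, and summed CPM of macrophage and leukocyte markers (vertical axes from 0) in each library. The 10 genes and Nos2 are highest in LATS1/2-Sox9-KO replicate 1 (214 counts per 100000 and 6359 normalized counts). In that library macrophage markers are at 73.4 CPM and leukocyte markers at 6.83. The highest sums are 104 for macrophage markers (LATS1/2-Sox9-KO replicate 3) and 9.26 for leukocyte markers (LATS1/2-KO replicate 1). The part of such cells in the differences was not tested.

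For each of the 10 genes, the 2 most alike among 11605 genes were sought by Pearson correlation of log2 CPM over the 9 libraries. These points share 3 genotypes and so mostly trace the differences between groups, and r is given as a description. Ifih1 was nearest to Irgm2 (r = 0.9965) and Igtp (0.9953), interferon-inducible GTPases, of which Irgm2 had means of 464, 1237 and 4401 normalized counts in control, LATS1/2-KO and LATS1/2-Sox9-KO. Zbp1 was nearest to Sp100 (0.9967) and Irgm1 (0.9949), Irf7 to Cxcl10 (0.9978) and Rsad2 (0.9961), and Eif2ak2 to Ifit1 (0.9995) and Tdrd7 (0.9989). Rsad2, the gene of viperin, had means of 793, 10569 and 66510, the last from 119645, 51244 and 28642 in replicates 1 to 3. Its log2 fold change between the deletion groups was 2.65, and 1.94 without LATS1/2-Sox9-KO replicate 1. Dhx58 was nearest to Sp140 (0.9910) and Arhgap31 (0.9895), Tlr2 to Trim21 (0.9755) and Tbcc (0.9752), and Tlr3 to Apol7a (0.9965) and Mrpl21 (0.9959). Nos2 was nearest to Misp (0.9899), with means of 464, 755 and 3541, and to Sars (0.9888). Mavs and Irf1 had other neighbours: Rhpn2 (0.9804) and Hagh (0.9737) for Mavs, and Aftph (0.9903) and Rbms2 (0.9741) for Irf1, with means of Rhpn2 at 6297, 2654 and 4076.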

How the data were processed

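RNA-sequencing libraries of sorted EYFP+ cells were made, per the labels, with a TruSeq RNA kit. That this kit does not mark strand was inferred from its name. The authors aligned reads to mm10 with STAR 2.6.0c and counted uniquely aligned proper pairs on Ensembl genes with featureCounts (Subread 1.6.2), and deposited the raw counts per gene and library, which are not normalized. Symbols, coordinates and exon lengths are from GENCODE M21 on GRCm38, which matched 55104 of 55450 identifiers. Overlapping genes on the other strand share exon bases with Dhx58 (Dhx58os, 141 bases), Tlr3 (Gm45542, 381), Eif2ak2 (Gm26637, 174, and n-R5s29, 47), Irf1 (Gm17334, 135) and Irf7 (Phrf1, 45), and the methods speak of pairs counted on the same strand. Which setting applied was not settled here, so reads in these bases may not be told apart.

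Counts were filtered with filterByExpr, scaled by TMM and fitted with edgeR 4.0.16's quasi-likelihood model of the 3 groups over all 9 libraries in R 4.3.3, with Benjamini-Hochberg adjustment over 19357 genes. An exact permutation test of 3 libraries against 3 gives no p below 0.1. At these depths counting error is small for all but the lowest counts, and n = 3 libraries per group limits the precision. The depth of each library is given with the groups. Groups and replicate numbers follow the labels. Members and lists were chosen with earlier results of these data known. Alternatives were DESeq2 1.42.0, RLE factors, TMM without the 100 most counted genes, the low-count filter removed or set to 10 counts in all libraries, a fit of only the 2 groups in question, a block for the replicate number, and each library left out in turn. Named were all 10 genes, the targeted genes, the most abundant gene of each marker list, the 2 nearest genes by correlation among those with at least 100 normalized counts on average, and from each list and comparison the 2 called genes with the largest and the 2 with the smallest log2 fold change, among those whose higher group averaged 100 normalized counts or more. Log2 CPM used a prior count of 2. The code was tested on simulated counts. Protein sequences were not used here, and some single-gene results are left out of the text, although the list counts include them.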

Additional observations from a re-analysis of the deposited data

How the results depend on the processing

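Over 13 alternatives, the 10 genes kept their direction in all fits. In LATS1/2-Sox9-KO against control all 130 fits kept their side of the threshold. In LATS1/2-KO against control 125 of 130 did, with 2 calls lost (Tlr2) and 3 gained (Ifih1 at 1.02 without control replicate 2, Irf1 at -1.20 without LATS1/2-KO replicate 1, and Nos2 with the replicate block). Between the deletion groups 119 of 130 did and 11 calls were lost. There, with DESeq2, 1209 genes were called (479 higher and 730 lower) instead of 719 (301 and 418). With each library left out in turn, the genes called there ranged from 201 (without LATS1/2-Sox9-KO replicate 2) to 1079 (without LATS1/2-KO replicate 1), those higher from 121 to 497, those lower from 78 to 582, the 10 genes called from 2 to 6, and the pathway list genes called from 13 to 35, against 31 with all libraries. Fewer libraries per group enter these fits. Lats2, at 0.11 between the deletion groups, ranged from -0.04 (without LATS1/2-Sox9-KO replicate 1) to 0.29 with libraries left out. The cause was not tested.

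The groups share replicate numbers in their labels, which do not say what same-numbered libraries have in common. The correlation of same-numbered deviations from the group means was 0.10, 0.16 and -0.03 between the deletion groups and -0.07 to 0.04 with control. Differently numbered pairs of the deletion groups ranged from -0.16 to 0.05. Nos2 was highest in replicate 1 and lowest in replicate 3 of every group. With 3 libraries per group, these values cannot decide whether same-numbered libraries belong together. With the replicate number as a block, 6, 8 and 5 of the 10 genes were called in the 3 comparisons. Nos2 was added in LATS1/2-KO against control (log2 fold change 1.36, SE 0.24, where the SE was 0.72 without the block). Ifih1 was lost between the deletion groups at 1.00.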

Other observations

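Genes that sense DNA in the cytosol were called about as often as all genes against control. Of 16 listed genes 15 were tested, of which 4 were called higher and 1 lower in LATS1/2-KO than in control, 5 higher and 1 lower in LATS1/2-Sox9-KO, and 2 higher and 1 lower between the deletion groups, with medians of 0.46, 0.58 and 0.12. Against control, 33.3% and 40% of the tested genes were thus called, where 34.6% and 37.4% of all genes were. Between the deletion groups 20% were called, where 3.71% of all genes were, with the losses of these calls given below. Trex1 was listed at 0 in every library. Cgas, the enzyme that signals cytosolic DNA, named after its values were seen, had 150, 186 and 101 normalized counts in control, 301, 369 and 332 in LATS1/2-KO, and 544, 511 and 455 in LATS1/2-Sox9-KO, without overlap of the groups. Its adaptor STING (Tmem173), also named afterwards, had 2409, 2652 and 1852 normalized counts in control, 2728, 2751 and 2705 in LATS1/2-KO and 2035, 2696 and 2633 in LATS1/2-Sox9-KO, and was not called. Among the DNA-binding Ifi200 family, Ifi204 rose by 1.95 (SE 0.45, adjusted p = 0.00431 from edgeR) in LATS1/2-KO and Ifi205 stood at 6.96, 2.27 and 1.24 normalized counts in control against 992, 282 and 324 in LATS1/2-Sox9-KO. Ifi203 fell from a mean of 549 to 70.8 normalized counts in LATS1/2-Sox9-KO (log2 fold change -2.95, SE 0.37, adjusted p = 8.56e-05 from edgeR). Between the deletion groups Ifi204 (1.70), Ifi205 (2.47) and Ifi203 (-1.73) were called, and these calls were lost without LATS1/2-KO replicate 2 (log2 fold changes 1.61, 2.14 and -1.56, adjusted p = 0.116, 0.109 and 0.0596) and without each library labelled LATS1/2-Sox9-KO in turn. The calls of Ifi204 and Ifi205 were also lost without LATS1/2-KO replicate 3 (adjusted p = 0.15 and 0.153). The log2 fold change of Ifi205 was 1.68 without LATS1/2-Sox9-KO replicate 1 and 3.18 without LATS1/2-KO replicate 1.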
